A study of Bos taurus with 32 samples.

Results

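The miR-199 family and miR-214 were followed in the fat of beef steers through 4 miRNAs, bta-miR-199a-3p, bta-miR-199a-5p, bta-miR-199b and bta-miR-214. They are 4 of the 233 miRNAs tested, from arrays of 13440 miRNA spots with 20 spots for each miRNA. They were taken by name and chosen by their scaled intensity on the high fat diet, where earlier results of these data had shown them higher in subcutaneous than in visceral fat. That depot difference is therefore given below as a description, without a test. Total RNA from subcutaneous fat (SC, backfat) and visceral fat (V, perirenal fat) of 16 Hereford and Aberdeen Angus cross steers was labelled with Cy3 and hybridized on 32 single-colour Agilent arrays, 1 per sample. The 4 groups of 8 samples were SC and V of steers on the control diet, based on barley grain and barley silage with a vitamin and mineral supplement, and SC and V of steers on the High fat diet, in which flaxseed took the place of part of the barley grain. Both depots were sampled from every steer, so a depot comparison was made within the same animals and a diet comparison between different animals. The arrays asked whether miRNA levels in bovine fat differ with depot and with dietary fat.

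MicroRNAs are short RNAs that bind messenger RNAs and lower their translation or stability. A precursor hairpin can give a mature miRNA from either arm, named 5p and 3p. In mammals miR-214 and a miR-199a hairpin are made from a shared transcript that runs opposite to an intron of the dynamin 3 gene, and both are known from mesenchymal cells such as fibroblasts, where they have been linked with skeletal development and fibrosis. In the RefSeq annotation of the cattle genome (ARS-UCD2.0), the genes MIR214 and MIR199A-1 both lay within DNM3 and within the same long non-coding RNA, LOC132342463. MIR199A-2 lay within DNM2, a ubiquitous dynamin, and MIR199B within DNM1, the neuronal dynamin. MIR199C lay within NUP88, a nuclear pore gene. The mature miR-199a arms can come from either MIR199A gene, and the array does not separate these sources. Whether MIR199B also adds to the bta-miR-199a-3p signal could not be checked here, since no sequence was used. The ratios below are therefore ratios of array signals and not of single hairpins. The miR-199 miRNAs are also close relatives in sequence, so signal shared between their probes cannot be separated here, and the array names of bta-miR-199b and bta-miR-199c give no arm.

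The intensity summed over all miRNAs ran from 26021 to 79290 on the 16 control arrays and from 96888 to 366714 on the 16 high fat arrays, a ratio of 5.42 between the medians. For the labelling spike-ins the ratio of high fat over control was 0.847. Each group lay on its own slide and each diet was scanned in its own session, so slide cannot be told apart from group, and session cannot be told apart from diet. One library went against its depot: bta-miR-196a, a miRNA of a HOX gene cluster, was -2.43 on the log2 scaled scale (defined below) in SC of control steer 108, within its range of -2.73 to -1.68 in control V, whereas it was between -7.22 and -6.04 in SC of the other 7 control steers. The comparisons of the 4 miRNAs that use this library are also given without it. All 4 miRNAs were detected on all 32 arrays.

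Levels are log2 intensities after division by the 75th percentile of the array, taken over the 91 miRNAs detected on all 32 arrays. A value of 0 is thus the level of that percentile, and the levels of different miRNAs, which have different probes, are not compared with each other. In bulk fat, fewer cells of a type and less RNA per cell cannot be told apart.

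**Figure D1:**
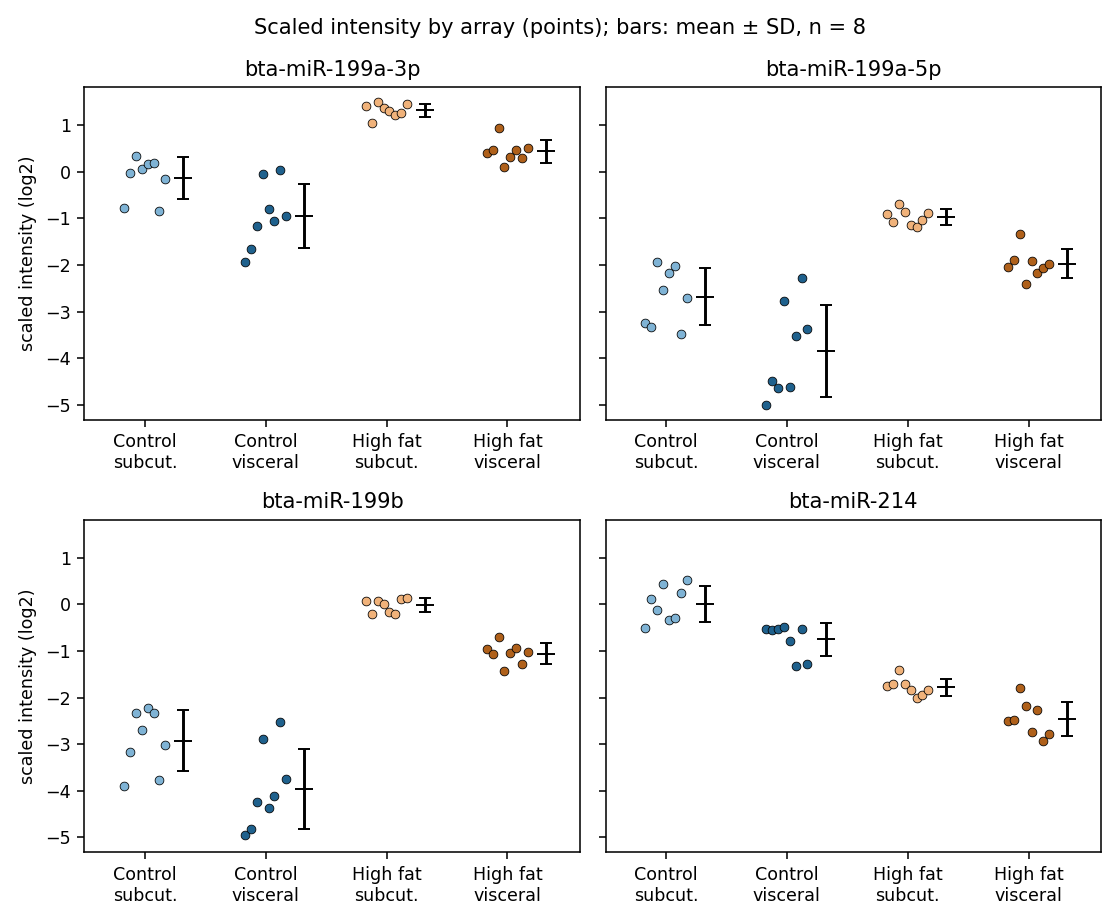
Log2 scaled intensity of bta-miR-199a-3p, bta-miR-199a-5p, bta-miR-199b and bta-miR-214 (vertical axis) on each array of the 4 groups (horizontal axis); points are arrays and bars the mean ± SD over 8 arrays. In both diets the mean of V was below that of SC for each miRNA; with diet, the miR-199 miRNAs were higher and bta-miR-214 was lower on the high fat arrays under this scaling.

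Bta-miR-199a-3p is the 3p arm of miR-199a. Its scaled level in control SC had a lowest value of -0.85, a median of 0.02 and a highest value of 0.33. In control V the lowest, median and highest values were -1.94, -0.998 and 0.03, so the V arrays spread more widely and overlapped those of SC. On the high fat diet the same values were 1.04, 1.33 and 1.49 in SC, and 0.10, 0.44 and 0.93 in V. There each SC array was above each V array. Before scaling, the median intensities were 244 in control SC, 81.4 in control V, 4413 in high fat SC and 1270 in high fat V.

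Bta-miR-199a-5p, the opposite arm of the same hairpin, was dim on the control arrays. Its scaled level in control SC ran from -3.49 through a median of -2.61 to -1.95, and in control V from -4.99 through -4.01 to -2.29. It ran from -1.19 through -0.98 to -0.69 in high fat SC and from -2.41 through -2.01 to -1.33 in high fat V. The depots overlapped on the control diet and not on the high fat diet. The median unscaled intensity was 9.50 in control V against 248 in high fat V.

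Bta-miR-199b, the miRNA of the hairpin within DNM1, had the same order of groups. Its scaled level ran from -3.90 through -2.85 to -2.23 in control SC and from -4.95 through -4.18 to -2.53 in control V. On the high fat diet it ran from -0.21 through 0.03 to 0.13 in SC and from -1.43 through -1.04 to -0.71 in V. Here too the depots overlapped only on the control diet, and the spread within a group was smaller on the high fat arrays.

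Bta-miR-214, which shares its transcript with a miR-199a hairpin, had another order. Its scaled level ran from -0.50 through 0.00 to 0.52 in control SC and from -1.33 through -0.54 to -0.48 in control V. It ran from -2.02 through -1.79 to -1.41 in high fat SC and from -2.93 through -2.50 to -1.79 in high fat V. The depots overlapped on both diets, and the high fat arrays lay below the control arrays. Its unscaled intensity was nevertheless not lower on the high fat diet, with medians of 210 in control SC and 524 in high fat SC, and 109 in control V and 190 in high fat V.

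The depots were tested on the control diet. Its 16 arrays were not part of the high fat depot contrast by which the miRNAs were chosen, but earlier results of these data were known. All 4 miRNAs were lower in V than in SC. In limma's test with 4 groups of 8 in 1 fit and Benjamini-Hochberg adjustment over 233 miRNAs, 12.0% of all miRNAs tested were called lower in V, 6.87% were called higher, and 18.9% were called in either direction. The median depot difference over the 233 was 0.00 and that over the 4 was -0.92. Bta-miR-199a-5p differed by -1.16 (SE 0.297, 95% confidence interval -1.77 to -0.55, limma adjusted p = 0.00646), which is 2.24-fold lower in V. Bta-miR-199b differed by -1.03 (SE 0.273, interval -1.59 to -0.47, limma adjusted p = 0.00701), 2.04-fold lower. Bta-miR-199a-3p differed by -0.82 (SE 0.213, interval -1.25 to -0.38, limma adjusted p = 0.00683), 1.76-fold lower. Bta-miR-214 differed by -0.76 (SE 0.166, interval -1.10 to -0.42, limma adjusted p = 0.00168), 1.69-fold lower with the smallest error of the 4. These errors and intervals use a spread shared by the 4 groups, including the high fat arrays used in the choice. For bta-miR-199a-5p the SD was 0.62 in control SC and 0.99 in control V, but 0.17 and 0.31 in high fat SC and V. The intervals of the miR-199 miRNAs are thus narrower than the spread of the control arrays alone would give.

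Within animals, bta-miR-214 was lower in V in 8 of 8 control steers, with differences from -1.80 to -0.03. Each of the 3 miR-199 miRNAs was lower in V in 7 of 8 control steers. Steer 405 was the exception for each, with V above SC by 0.87 for bta-miR-199a-3p, 1.20 for bta-miR-199a-5p and 1.23 for bta-miR-199b, while its bta-miR-214 was -0.77. The two-sided exact sign-flip test over the 8 steers gave p = 0.007812 for bta-miR-214, the smallest it allows, and p = 0.03125 for bta-miR-199a-3p. It gave p = 0.04688 both for bta-miR-199a-5p and for bta-miR-199b in the same exact test of 8 steers. These values are not adjusted. Control SC and control V lay on different slides, so neither these p-values nor those of limma can tell depot apart from slide.

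The total intensity of the arrays moved with the miR-199 difference. Steers 211 and 405 were the 2 control steers whose V array was brighter in total than their SC array. Among control steers they had the smallest or opposite miR-199 differences. For bta-miR-199a-3p these 2 steers had -0.11 and 0.87, against -1.64 to -0.80 in the other 6. For bta-miR-199b they had -0.19 and 1.23, against -2.15 to -0.74. Bta-miR-214 did not follow this pattern, with -0.92 and -0.77 in these 2 steers and -1.80 to -0.03 in the other 6. On the high fat diet the pattern did not appear: the V array was the brighter in steer 302 alone, whose differences of -0.98, -0.79 and -0.88 for bta-miR-199a-3p, bta-miR-199a-5p and bta-miR-199b lay inside the ranges of the other 7 steers (-1.26 to -0.56, -1.55 to -0.64 and -1.43 to -0.74). The part of total intensity in the depot difference was not tested.

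**Figure D2:**
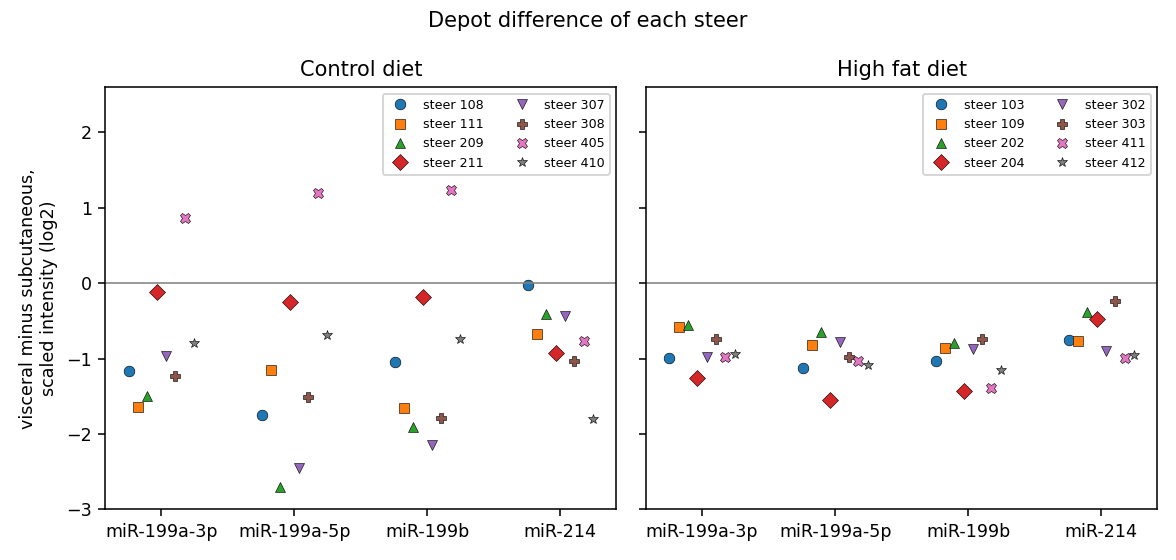
Visceral minus subcutaneous log2 scaled intensity (vertical axis) of each steer for the 4 miRNAs, with 8 steers on the control diet (left) and 8 on the high fat diet (right). On the control diet steer 405 lies above 0 for the miR-199 miRNAs, at 0.87 to 1.23, and on the high fat diet each steer lies below 0.

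Without SC of steer 108 the differences were -0.91, -1.24, -1.17 and -0.83 for bta-miR-199a-3p, bta-miR-199a-5p, bta-miR-199b and bta-miR-214. Without both arrays of steer 405 they were -1.06, -1.50, -1.35 and -0.76. All 4 were called each time, beside 15.9% and 12.0% of all miRNAs tested called lower in V. Without SC of steer 108 the exact permutation test of 8 arrays against 7 gave unadjusted p = 0.009946, 0.01647, 0.01197 and 0.0001554 in the same order, and the exact sign-flip test over the other 7 steers 0.0625, 0.09375, 0.07812 and 0.01562, so by steer only bta-miR-214 stayed under 0.05. The calls of the miR-199 miRNAs rest on the spread being shared with the high fat arrays: in a limma fit of the control arrays alone 1 of the 4, bta-miR-214, was called (adjusted p = 0.0197), and the adjusted p of the other 3 was 0.0714 to 0.0770. That fit tested 190 miRNAs in place of 233 and called 5.26% of them lower in V. Adjusted over the same 190, the 4-group limma fit still called all 4 (adjusted p 0.00137 to 0.00571), and 14.7% of the 190 lower in V. The methods' t-test called 0 of the 4 after Bonferroni correction and 1, bta-miR-214, after Benjamini-Hochberg adjustment, whereas 4 of the 4 had an unadjusted p under 0.05. Of all 233 miRNAs that test called 0.429% lower in V after Bonferroni correction and 4.29% after Benjamini-Hochberg adjustment. Exact permutation tests of 8 arrays against 8 gave unadjusted p = 0.01166 for bta-miR-199a-3p, 0.01647 for bta-miR-199a-5p, 0.01989 for bta-miR-199b and 0.0003108 for bta-miR-214. All 4 differences stayed below 0 under every scaling tried, but 0 were called (0 also at an unadjusted limma p under 0.05) with the percentile over the whole array, 1 with the spike-ins and 2 with normexp. The share of all miRNAs called lower in V was 2.92%, 4.17% and 2.08% under these settings, in the same order. With the spike-ins the uncalled miR-199 differences were larger, at -1.04 to -1.39 (limma adjusted p 0.0728 to 0.103). With normexp background correction, which adds an offset of 50 to each spot and so draws dim values together, bta-miR-199a-5p differed by -0.08 (limma adjusted p = 0.570) and bta-miR-199b by -0.03 (limma adjusted p = 0.811), beside -0.50 for bta-miR-199a-3p and for bta-miR-214.

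On the high fat diet, the contrast by which the miRNAs had been chosen, V minus SC was -0.88 for bta-miR-199a-3p, -1.002 for bta-miR-199a-5p, -1.03 for bta-miR-199b and -0.68 for bta-miR-214. Each was lower in V in 8 of 8 steers. Over all miRNAs tested, 14.6% were called lower in V on this diet, and 3.43% were lower in V with groups that did not overlap, as was so for the 3 miR-199 miRNAs. Nothing is read from these counts, since the choice of the miRNAs fixed them. The miRNA nearest to not being separated was bta-miR-199a-3p, whose lowest SC array was 1.04 and highest V array 0.93, and bta-miR-214 overlapped between -2.02 and -1.79. The depot difference on the high fat diet minus that on the control diet was -0.07 for bta-miR-199a-3p, 0.16 for bta-miR-199a-5p, 0.00 for bta-miR-199b and 0.08 for bta-miR-214. This difference was not tested.

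Between diets, the miR-199 miRNAs and bta-miR-214 went in opposite directions under the 75th percentile scaling. Of all 233 miRNAs, 76.0% were called in SC (41.6% higher and 34.3% lower with high fat feeding) and 71.7% in V (42.1% higher and 29.6% lower), so a call by itself sets no miRNA apart. The median diet difference of the 91 miRNAs detected on all arrays was -0.91 in SC and -0.80 in V. The high fat arrays of both depots are those used to choose the miRNAs, and each diet comparison shares its arrays with the depot comparisons. The differences within a depot are therefore given without a test. A test was made on the mean of the depots of each steer, and was added after the values were seen. The choice used the difference between depots and not their mean, but the high fat means come from the same arrays. Slide and scan session go with diet, so the p-values of this test cannot tell diet apart from them.

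In SC, bta-miR-199b exceeded its control level by 2.91 (SE 0.273), 7.49-fold, and in V by 2.90 (SE 0.273), 7.47-fold. Bta-miR-199a-5p was higher by 1.71 in SC and by 1.86 in V (SE 0.297 each). Bta-miR-199a-3p was higher by 1.45 in SC and by 1.38 in V (SE 0.213 each). Bta-miR-214 was lower on the high fat diet, with a difference of -1.79 in SC, 3.45-fold, and of -1.71 in V, 3.27-fold (SE 0.166 each). In limma's test of the steer means, 8 steers against 8, 77.7% of the 233 miRNAs were called. There bta-miR-199b differed by 2.90 (SE 0.181, limma adjusted p = 1.19e-10), bta-miR-199a-5p by 1.79 (SE 0.193, limma adjusted p = 1.65e-07), bta-miR-199a-3p by 1.42 (SE 0.149, limma adjusted p = 1.22e-07) and bta-miR-214 by -1.75 (SE 0.127, limma adjusted p = 8.89e-10). The arrays of the 2 diets did not overlap for any of the 4 in SC, where 52.8% of all miRNAs tested did not overlap. In V they overlapped for bta-miR-199a-5p only among the 4, against 46.4% of all miRNAs without overlap. Without SC of steer 108 the differences in SC were 2.77, 1.63, 1.36 and -1.86 in the order of this paragraph.

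The direction of a diet difference depended on the scaling. Bta-miR-214 was higher on the high fat diet without scaling (1.13 in SC and 0.71 in V), with scaling to the spike-ins (1.38 and 1.16) and, not called, with scaling to bta-miR-181a, the reference miRNA of the methods (0.22 and 0.17). The 3 miR-199 miRNAs were lower on the high fat diet with the 75th percentile over all miRNAs of the array, at -2.69 to -1.24 in SC and -3.06 to -1.54 in V. That percentile lay at the value given to undetected miRNAs, 0.1, on 15 of the 32 arrays. Among all miRNAs tested, 1.67% were called lower and 85.8% higher in SC without scaling, and 65.8% lower and 10.8% higher with the percentile over the whole array. In the deposited log2 values bta-miR-199b was higher by 1.51 in SC and 1.83 in V, while bta-miR-214 was lower (-3.18 and -2.78). There bta-miR-199a-3p differed by 0.05 and 0.32, and bta-miR-199a-5p by 0.31 and 0.80. The deposited values were shifted down from the unscaled intensities on 18 of the 32 arrays. They can thus set scaled beside unscaled arrays. With normexp bta-miR-199a-5p was 0.09 in SC and -0.41 in V, whereas bta-miR-199a-3p, bta-miR-199b and bta-miR-214 kept their directions.

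**Figure D3:**
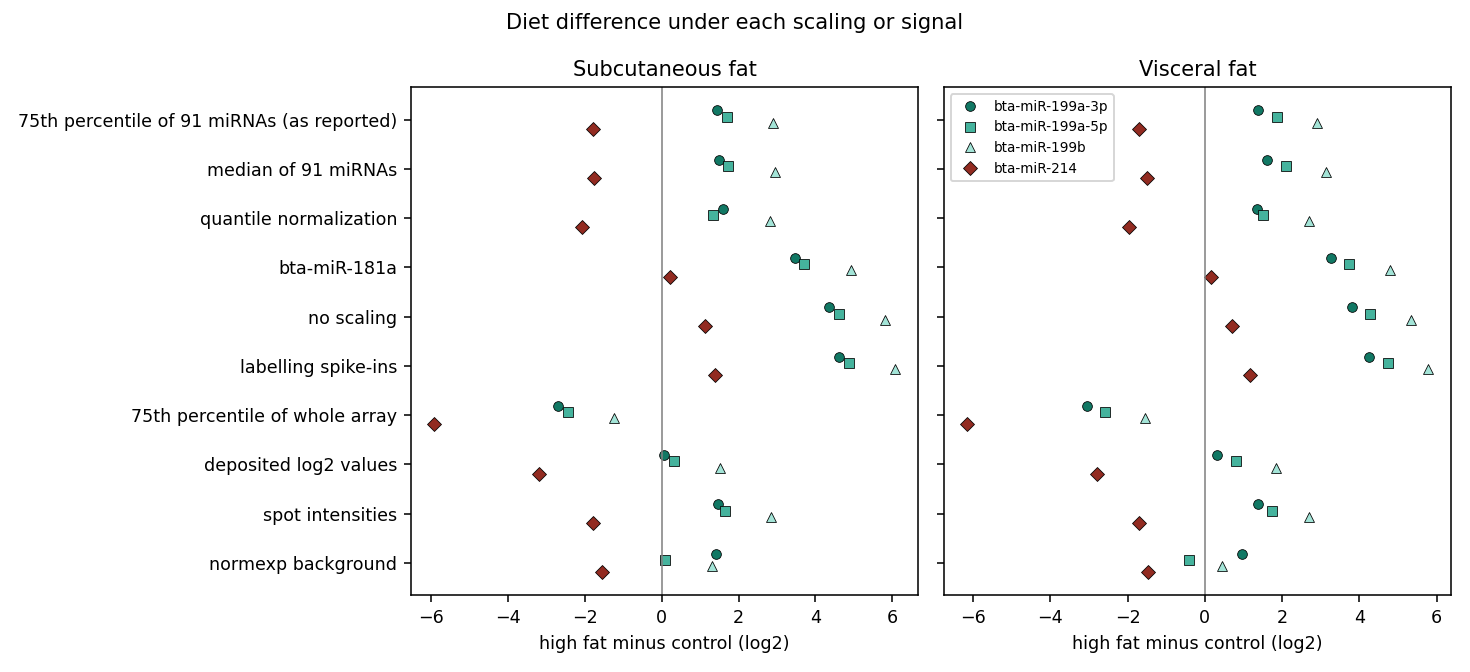
High fat minus control difference (log2, horizontal axis) of the 4 miRNAs under each scaling or signal (vertical axis), in subcutaneous fat (left) and visceral fat (right). The 4 markers shift together only where each array is divided by 1 number, not in the rows with quantile normalization or normexp; bta-miR-214 stays to the left of the 3 miR-199 miRNAs in each row, and lies on either side of 0, from -5.93 to 1.38 in subcutaneous fat.

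The ratio of miRNAs within an array does not depend on the scaling, but it does depend on the background correction. Since the probes of the miRNAs differ, only the change of a ratio between groups is read, not its size. The intensity of bta-miR-214 was 3.31 to 13.3 times that of bta-miR-199a-5p on the control SC arrays, with a median of 7.28, and 3.40 to 22.1 times on the control V arrays, with a median of 9.63. On the high fat arrays it was 0.519 to 0.641 times in SC (median 0.562) and 0.552 to 1.17 times in V (median 0.693). The diets did not overlap in either depot. The log2 ratio was lower on the high fat diet, with a difference of -3.49 in SC (SE 0.284, 11.3-fold) and of -3.58 in V (SE 0.410, 11.9-fold). With normexp these differences were -1.64 and -1.05 (3.12-fold and 2.08-fold), again without overlap. The mean log2 ratio of the depots of each steer differed between diets by -3.53 (SE 0.209, 11.6-fold), for which the two-sided exact permutation test of 8 steers against 8 gave p = 0.000155, the smallest it allows, and 0.000194 after adjustment over the 5 ratios so tested. Between depots on the control diet the ratio differed by 0.40 (exact permutation p = 0.407, adjusted 0.407 over 9 tests; n = 8 and 8), and by -0.43 with normexp.

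Because bta-miR-199a-5p was dim on the control arrays, the ratio was also taken over bta-miR-199a-3p, an addition made after the values were seen. All spots of bta-miR-199a-3p and bta-miR-214 were well above background in the 4 groups (100% of spots of each probe). Bta-miR-214 had 0.707 to 2.13 times the intensity of bta-miR-199a-3p in control SC and 0.684 to 2.66 times in control V, but 0.103 to 0.147 times in high fat SC and 0.102 to 0.205 times in high fat V. The log2 differences between diets were -3.24 in SC (SE 0.216, 9.43-fold) and -3.10 in V (SE 0.290, 8.55-fold), and with normexp -2.96 and -2.44 (7.79-fold and 5.42-fold). Over the steer means the difference was -3.17 (SE 0.163, adjusted exact permutation p = 0.000194, 8 steers against 8).

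The ratio of bta-miR-199b to bta-miR-199a-5p also differed between diets. Bta-miR-199b had 0.636 to 1.13 times the intensity of bta-miR-199a-5p in control SC and 0.667 to 1.33 times in control V. It had 1.70 to 2.24 times in high fat SC and 1.54 to 2.35 times in high fat V, again without overlap between diets. The log2 ratio exceeded that of the control diet by 1.20 in SC (SE 0.0963, 2.30-fold) and by 1.04 in V (SE 0.135, 2.05-fold) and, with normexp, by 1.21 and 0.87. Over the steer means it differed by 1.12 (SE 0.0798, adjusted exact permutation p = 0.000194, 8 steers against 8). Taken over bta-miR-199a-3p, in contrast, bta-miR-199b was higher by 1.46 in SC and 1.52 in V from the deposited intensities but differed by -0.11 and -0.52 with normexp, so whether bta-miR-199b gained on bta-miR-199a-3p depended on the background correction. Between depots on the control diet it differed by 0.13 (exact permutation p = 0.389, adjusted 0.407; n = 8 and 8).

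The 2 arms of miR-199a stayed nearer to each other. The median ratio of bta-miR-199a-5p to bta-miR-199a-3p was 0.175 in control SC, 0.146 in control V, 0.201 in high fat SC and 0.189 in high fat V. The log2 ratio differed between diets by 0.26 in SC (SE 0.129) and by 0.48 in V (SE 0.194), with overlapping groups of 8, and over the steer means by 0.37 (SE 0.103, adjusted exact permutation p = 0.0028, 8 steers against 8). With normexp it went the other way, by -1.32 in SC and -1.39 in V. On the control diet the arms differed between depots by -0.35 (adjusted exact permutation p = 0.189; 0.42 with normexp). Without SC of steer 108 the differences between depots were 0.41 for bta-miR-214 over bta-miR-199a-5p, 0.07 for bta-miR-199b over bta-miR-199a-5p and -0.34 for the arms, and those between diets in SC -3.48, 1.14 and 0.27. A ratio within an array is free of the scaling but not of slide and scan session, which go with diet.

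**Figure D4:**
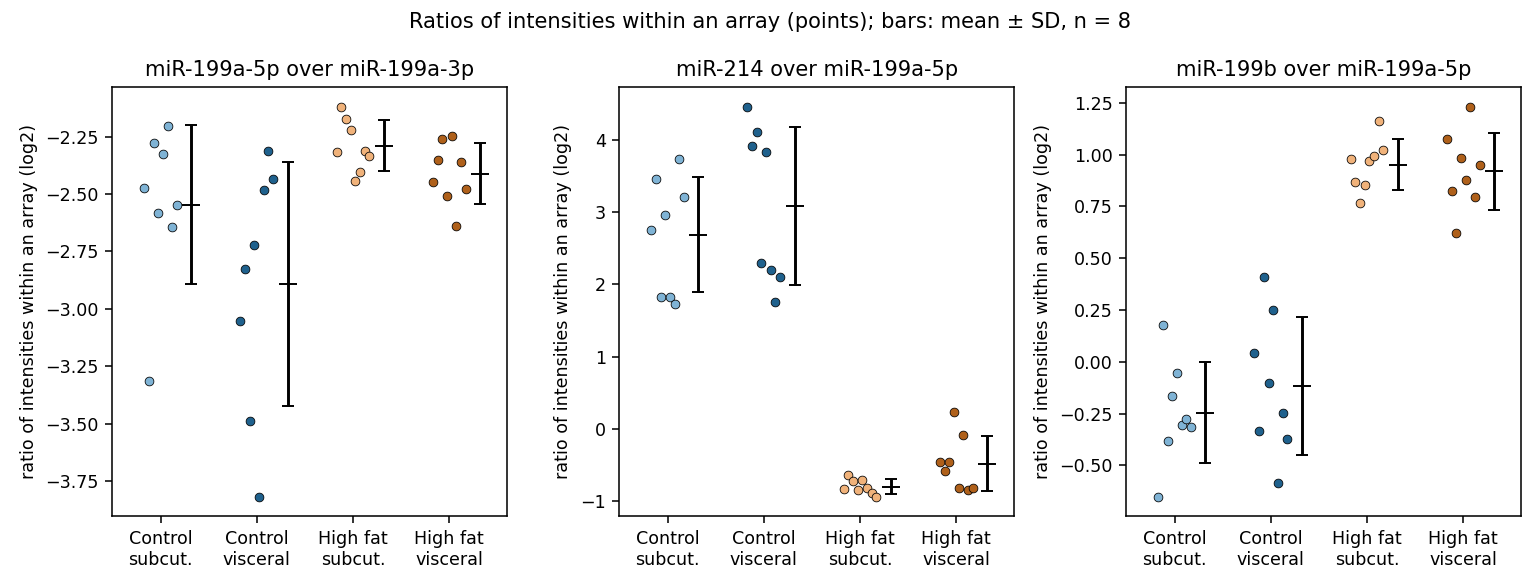
Log2 ratio of intensities within an array (vertical axis; each panel has its own range) for bta-miR-199a-5p over bta-miR-199a-3p, bta-miR-214 over bta-miR-199a-5p and bta-miR-199b over bta-miR-199a-5p, by group; points are arrays and bars the mean ± SD over 8 arrays. In the middle and right panels the arrays of the 2 diets are apart in both depots, whereas the arms of miR-199a overlap between diets.

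Each miRNA was read by 2 probes, spotted 10 times each, and both probes moved alike. For bta-miR-214 the brighter and the dimmer probe differed between diets in SC by -1.80 and -1.76, and between depots on the control diet by -0.77 and -0.74. For bta-miR-199b these values were 2.85 and 2.78, and -0.88 and -0.90. The dim probes were near background on control arrays: of the spots of the dimmer bta-miR-199a-5p probe, 23.75% were well above background in control SC and 5% in control V, and of those of the dimmer bta-miR-199b probe 62.5% and 15%. The brighter probes of these miRNAs had 60% and 66.25% of their spots well above background in control V. Differences that rest on control V thus have the least signal behind them for bta-miR-199a-5p and bta-miR-199b.

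Bta-miR-199c, the further miRNA of the family on the array, was detected on 7 of 8 arrays in control SC, 3 of 8 in control V, and 8 of 8 in both high fat groups. Its unscaled intensity had a median of 8.92 in control SC, 224 in high fat SC and 64.9 in high fat V. In control V the 5 undetected arrays carry no level. On the high fat diet it was lower in V than in SC in 8 of 8 steers, with a difference of -0.84, beside -0.88 to -1.03 for the other miR-199 miRNAs.

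Within groups, the miR-199 miRNAs varied together, and bta-miR-214 followed them less on the control than on the high fat arrays. After the mean of each group was taken off, Pearson's r over the 32 arrays was 0.94 between bta-miR-199a-3p and bta-miR-199b, 0.92 between bta-miR-199a-5p and bta-miR-199b, and 0.85 between the arms of miR-199a. With bta-miR-214 it was 0.12 for bta-miR-199a-3p, -0.04 for bta-miR-199a-5p and 0.05 for bta-miR-199b. By group, r with bta-miR-214 was -0.24 to 0.08 in the control groups, 0.42, 0.83 and 0.26 in high fat SC and 0.52, 0.37 and 0.42 in high fat V for bta-miR-199a-3p, bta-miR-199a-5p and bta-miR-199b. Without SC of steer 108 the r among the miR-199 miRNAs were 0.85 to 0.93, and those with bta-miR-214 in control SC -0.64 to -0.48. These r are descriptions, and the points share the scaling and depth of their array. In the same way the miR-199 levels had an r of 0.39 to 0.51 with the total intensity of the array, and bta-miR-214 one of -0.06. Of 87 other miRNAs detected on all arrays, bta-miR-99a (r = 0.78), bta-miR-497 (r = 0.76) and bta-let-7i (r = 0.70) were most like the mean of the 4 over the 32 arrays. Bta-miR-99a, also in the stromal list below, belongs to the miR-99/100 family, bta-miR-497 to the miR-15/16 family by its seed, and bta-let-7i to the let-7 family. On the control diet their depot differences were -0.60, -0.71 and -0.11, and their diet differences in SC were 1.23, 2.09 and 0.03.

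Because miR-199 and miR-214 are known from mesenchymal cells, they were set beside other miRNAs of stromal and vascular smooth muscle cells. Of 15 such miRNAs 14 were tested, and on the control diet 2 were called lower in V and 1 higher, with a median difference of -0.07, beside 0.00 over all miRNAs tested. Of all miRNAs tested, 12.0% were called lower in V and 6.87% higher. Bta-miR-125b, common in mesenchymal cells, was lower in V, with a difference of -0.60 (limma adjusted p = 0.00732). Bta-miR-145, the smooth muscle miRNA, was higher in V by 0.56 (limma adjusted p = 0.0317). Bta-miR-27b of the miR-23b/27b/24 cluster differed by -0.08 (limma adjusted p = 1). The summed scaled intensity of this list was 7.47 to 11.9 in control SC and 5.99 to 11.8 in control V, so it overlapped. The median depot difference of the stromal list was thus near that of all miRNAs, at -0.07 beside -0.92 for the 4, which are called here by their own names and not by a cell type.

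Between diets the stromal list had 11 of 14 higher and 1 lower with high fat feeding in SC (median 1.39) and 12 of 14 higher and 0 lower in V (median 1.54), beside medians of 0.10 and 0.17 over all miRNAs tested. Of all miRNAs tested, 41.6% were called higher and 34.3% lower in SC, and 42.1% and 29.6% in V. Only 8 of the list were detected on all 32 arrays. A miRNA at the floor on the control arrays could only be called higher, so the counts are not read as a change of the list. The summed scaled intensity of the list was 10.9 to 14.1 in high fat SC and 11.1 to 15.6 in high fat V. The 3 miR-199 miRNAs lay on the side of most of the list, and bta-miR-214 on the other side, under this scaling.

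Markers of other cells in fat moved as well. Of 8 adipocyte miRNAs, 3 were called higher in V on the control diet and 0 lower (median 0.30), beside 6.87% and 12.0% of all miRNAs tested. Among them bta-miR-378, made from an intron of the PGC-1beta gene, was higher by 0.89 (limma adjusted p = 0.000399) and bta-miR-365-3p, a miRNA of brown fat differentiation, by 0.57 (limma adjusted p = 0.0439), while bta-miR-103, which acts in insulin signalling, differed by 0.24 (limma adjusted p = 0.272). The summed scaled intensity of the adipocyte list was 1.97 to 3.56 in control SC and 3.33 to 5.66 in control V. Of 2 endothelial miRNAs 1 was called higher in V, bta-miR-126, the main endothelial miRNA (0.66, limma adjusted p = 0.0130), with a summed intensity of 0.579 to 1.501 in control SC and 0.864 to 2.42 in control V. In the diet comparison 5 of 8 adipocyte miRNAs were higher and 2 lower in SC, and 5 higher and 1 lower in V. Of all miRNAs tested, 41.6% were called higher and 34.3% lower in SC, and 42.1% and 29.6% in V. Only 5 of the 8 adipocyte and 1 of the 2 endothelial miRNAs were detected on all 32 arrays, so the brighter high fat arrays have a part in these counts that was not tested. Both endothelial miRNAs were higher in each depot, bta-miR-126 by 2.11 in SC (limma adjusted p = 2.04e-11) and by 2.03 in V (limma adjusted p = 5.48e-11). The summed endothelial intensity was 3.57 to 4.84 in high fat SC and 5.09 to 8.23 in high fat V. The part of these lists in the levels of miR-199 and miR-214 was not tested.

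Blood, muscle and epithelial miRNAs were followed as well. Of 6 blood and immune miRNAs tested, 1 was called higher in V on the control diet, bta-miR-486, a red cell miRNA (0.68, limma adjusted p = 0.00205), and 0 lower. Of all miRNAs tested, 6.87% were called higher and 12.0% lower. The median difference of the list was -0.02. Bta-miR-223 differed by -0.03 and bta-miR-155 by -0.39 (limma adjusted p = 0.261), and bta-miR-451, detected on 21 arrays, by -0.06. None of these was called. The summed intensity of that list was 0.305 to 0.566 in control SC and 0.419 to 0.615 in control V. In the diet comparison 2 were higher and 2 lower in SC, and 3 higher and 3 lower in V. The shares of all miRNAs were 41.6% higher and 34.3% lower in SC, and 42.1% and 29.6% in V. Only 3 blood and 0 skeletal muscle miRNAs were detected on all 32 arrays. Of 7 skeletal muscle miRNAs 3 were tested, 0 were called between depots on the control diet and 1 was higher in each depot with high fat feeding, with summed intensities of at most 0.0311 in control SC, 0.137 in control V, 0.228 in high fat SC and 0.0917 in high fat V. The cardiac and slow muscle miRNAs bta-miR-208a and bta-miR-208b were detected on 0 arrays. Of 6 epithelial miRNAs on the array 5 were detected on 0 arrays, bta-miR-200b was detected on 1 array, and 0 were tested. Without SC of steer 108 the depot counts of the stromal, endothelial, blood and muscle lists were the same, and 4 in place of 3 adipocyte miRNAs were called higher in V. There 9.01% of all miRNAs tested were called higher in V.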

How the data were processed

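Total RNA was labelled with Cy3 by the authors, hybridized on 32 customised Agilent 8 × 15K arrays and processed with Feature Extraction 10.7.3.1 (protocol miRNA_107_Sep09). The deposited intensity of each miRNA is background subtracted, summed over its probes and not scaled between arrays, with 0.1 where undetected. The authors also deposited log2 values normalized to the 75th percentile, used here as an alternative. Against the unscaled intensities, these were shifted down on 18 of the 32 arrays, so the deposited log2 values are not scaled alike on all arrays. They were matched to miRNAs by value (244 of 244 features).

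Intensities were divided by the 75th percentile over 91 miRNAs detected on all arrays, set to at least the floor of -7.22 (log2), and tested with limma 3.58.1 (R 4.3.3), two-sided, with Benjamini-Hochberg adjusted p under 0.05. With detection required on 8 arrays, 240 miRNAs passed, and 233 remained after those at the floor on every array. 0 spots were saturated and 3.30% carried an outlier mark. The number of arrays, 8 a group, limits the precision. The limma step and the exact tests were tested on simulated data.

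The members and lists were chosen with earlier results of these data known. Named beside the members were bta-miR-199c, the 3 miRNAs most like their mean, at most 3 miRNAs per list by level among those detected on all 32 arrays, and bta-miR-196a beside steer 108. The counts of 5 or fewer undetected or single miRNAs, and bta-miR-451 beside bta-miR-486, were named after their values were seen. Samples of both depots pair by the steer in the titles. After group means were taken off, same-steer samples correlated with a median r of -0.27 (control) and 0.27 (high fat) over the 91 miRNAs, and the steer entered as a block in an alternative. Ratios were compared with exact permutation tests (8 against 8, two-sided; 9 tests by depot, and 5 on the mean of the depots of each steer). Groups share arrays across the comparisons. RefSeq coordinates served only to find the genes that overlap each miRNA gene; none is printed, and no sequence was used.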

Additional observations from a re-analysis of the deposited data

Results flagged for a closer look

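Of 32 sets of 8 arrays checked (each of the 5 miRNAs and 3 ratios in each group), 2 had a lowest array set apart from the others, and chance sets apart about 1 in 20. For bta-miR-199c in control SC the gap was 0.669 of the range: steer 405, where the miRNA was undetected, lay at the floor of -7.22 and the next array at -5.39. For the ratio of bta-miR-199a-5p to bta-miR-199a-3p in control SC the gap was 0.605 of the range: in steer 111 the ratio was 0.101, below a median of 0.175. No explanation was tested for either.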

How the results depend on the processing

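On the control diet, 4 of the 4 miRNAs were called lower in V. This count was 0 with the 75th percentile over the whole array, 1 with scaling to the spike-ins, 2 with normexp, 0 by the methods' t-test with Bonferroni correction, and, by analyses added after seeing the data, 1 by that test with Benjamini-Hochberg adjustment and 1 on the control arrays alone (4 when the fit of all groups was adjusted over the same 190 miRNAs). It was 4 under the other scalings and filters, with the position on the slide as a block, and with each of the 16 control arrays left out in turn (lowest 4, highest 4). With the steer as a replicate block it was also 4, and the block changed no other call of the 4 miRNAs or ratios (adjusted p 0.00264 to 0.0185). The depot difference of bta-miR-199c was 0.13 with normexp. Among all miRNAs tested, the share called lower in V was 12.0% in the main fit. It was 2.92% with the percentile over the whole array, 4.17% with the spike-ins and 2.08% with normexp. By the methods' t-test it was 0.429% after Bonferroni correction and 4.29% after Benjamini-Hochberg adjustment. On the control arrays alone it was 5.26%.

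In SC, the count called lower on the high fat diet (1) was 4 with that percentile and 0 without scaling, with bta-miR-181a and with the spike-ins. In V it was 4, 0, 0 and 0, and 2 with normexp. The share of all miRNAs called lower in SC and V was 65.8% and 60% with that percentile and 84.2% and 82.5% with normexp. This share was 1.67% and 2.92% without scaling, 8.79% and 7.11% with bta-miR-181a, and 0.417% in both with the spike-ins. The count called higher (3) was 0 with that percentile, 1 in the deposited values, 2 with normexp, and 4 without scaling and with the spike-ins, in both depots. The share of all miRNAs called higher in SC and V was 10.8% and 8.75% with that percentile and 20.5% and 23.8% in the deposited values. This share was 9.58% and 10.8% with normexp, 85.8% and 68.8% without scaling, and 90% and 75.4% with the spike-ins. The counts of the 4 rest on arrays used to choose them, so they describe the processing and are no support for a diet difference. They are not read apart from these shares. With that percentile, bta-miR-199a-3p was -2.69 in SC and -3.06 in V, bta-miR-199a-5p -2.43 and -2.58, bta-miR-199b -1.24 and -1.54, and bta-miR-199c -1.65 in SC. Bta-miR-214 was 1.13 and 0.71 without scaling, 0.22 and 0.17 with bta-miR-181a, and 1.38 and 1.16 with the spike-ins. With normexp bta-miR-199a-5p was -0.41 in V, and bta-miR-199c -0.77 in SC and -1.08 in V. The reversals of the 4 miRNAs under another scaling go with a shift that is the same for each of the 4 on an array. This does not hold for bta-miR-199c, which lay at the floor on 1 control SC array and 5 control V arrays. The cause of the reversals under normexp was not tested.

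Of the ratios, bta-miR-199a-5p over bta-miR-199a-3p between diets in V was 0.35 with spot intensities, beside 0.48 from the deposited intensities. Between depots on the control diet, the ratio of bta-miR-199b was -0.22 over bta-miR-199a-3p, where it was 0.13 over bta-miR-199a-5p, neither called. With normexp, added after seeing the data, bta-miR-199a-5p over bta-miR-199a-3p was 0.42 between depots, called, and -1.32 and -1.39 between diets in SC and V. Each of these was reversed. The depot difference of bta-miR-214 was -0.43 over bta-miR-199a-5p and -0.00741 over bta-miR-199a-3p, the first called. Bta-miR-199b over bta-miR-199a-3p was 0.46 between depots, called, and -0.11 and -0.52 between diets in SC and V. The cause was not tested. Dim signal on control arrays, and 8 arrays a group, limit these values.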
